A study of Bos taurus with 6 samples.

Results

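The miR-2284 and miR-2285 family was followed in bovine cumulus cells, granulosa-derived cells that nurse the growing oocyte through gap junctions. An oocyte with its cumulus is abbreviated COC. Members were chosen by name alone, as all entries of the deposited count table called bta-miR-2284 or bta-miR-2285 with any letter or arm. They were 102 of the 1055 entries, or 62 different mature miRNAs, 31 named miR-2284 and 31 named miR-2285. Small RNA had been sequenced in 6 libraries, each from pooled cumulus pieces taken after in vitro maturation of COCs from slaughterhouse ovaries and grouped afterwards by the fate of the enclosed oocyte. Samples D, E and F came from pools around oocytes that became blastocysts, and Samples A, B and C from pools around oocytes that had not cleaved after exposure to sperm. All COCs were matured with follicle stimulating hormone and exposed to sperm of a bull of proven fertility, and no untreated group was sequenced. Each pool mixed pieces from several COCs, so a library gives an average over COCs. The labels do not say whether the pools within each fate differ in day or herd, and p-values therefore measure the spread between these pools, which may be technical.

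miRNAs are short RNAs cut from hairpin precursors by Drosha and Dicer, and they guide Argonaute proteins to messenger RNAs through the seed at their 5′ end. The miR-2284 and miR-2285 family is known from cattle and other ruminants and is one of the largest miRNA families of that lineage, with copies on many chromosomes. It is named by letters in order of description, and the letters say nothing about function. The roles of most single members are not established.

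Library totals of Samples D, E and F were 8139237, 3551009 and 3720317 counts, against 7865111, 2776256 and 4277291 for Samples A, B and C. Levels are given as CPM, counts scaled so that each whole library has the same sum, 1000000. A count of 0 allows 3 counts at most, a level of 0.369, 0.845 and 0.806 CPM for Samples D, E and F, against 0.381, 1.08 and 0.701 CPM for Samples A, B and C. The gonadal miRNA miR-202 was at 5968 to 6685 CPM in blastocyst samples and 6449 to 8454 CPM in not-cleaved samples. Of the blood cell list with 6 entries, the sum was 0.806 to 3.66 CPM in blastocyst samples and 0.636 to 4.68 CPM in not-cleaved samples, with miR-144 and miR-223 at 0 in every library. The 4 vascular entries summed to 15.1 to 27.6 CPM in blastocyst samples and 15.5 to 29.9 CPM in not-cleaved samples. The 6 listed entries of early embryonic cells summed to at most 8.45 CPM, in Sample E. Intervals given below cover counting error only, and leave out differences between pools and in library preparation. PCR copies were not marked, so counting error itself may be understated.

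Most members of the family were rare or not detected. Of the 102 entries, 28 had 0 counts in every library, 26 had 1 to 3 counts over all 6 libraries together, and 23 had at least 1 count in all 6. More than 10 counts in any library were found for 28 entries (27.5%), and more than 10 in all 6 for 9 entries (8.82%). These 9 were miR-2284x, miR-2284w, miR-2284ab, miR-2285q and the 5 entries of miR-2285k. Only miR-2284x and miR-2284w had more than 50 counts in every library. By mature miRNA, 40 of 62 had a count somewhere, 21 of miR-2284 and 19 of miR-2285. Set beside this, 28 of the 275 entries from miR-2286 to miR-2904 (10.2%), 11 of the 45 entries from miR-6119 to miR-7865 (24.4%) and 231 of the 468 other miRBase entries (49.4%) had more than 10 counts in all 6 libraries.

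Depth went with the number of members seen. Samples D, E and F held 62, 31 and 43 family entries with a count, against 52, 43 and 49 in Samples A, B and C. Entries past 10 counts numbered 25, 9 and 18 in Samples D, E and F, against 25, 17 and 18 in Samples A, B and C. In the same order, entries of the whole table past 10 counts numbered 377, 332 and 338, against 381, 342 and 341. The deepest libraries, D and A, thus had the most members, but Sample E had the fewest although Sample B was sequenced less deeply. When all libraries were brought to the total of Sample B, the expected number above 10 counts was 14.5, 8.23 and 15.8 for Samples D, E and F, against 15.2, 17 and 12.5 for Samples A, B and C. Sample D alone held 9 of the 17 entries that were seen in a single library, each with at most 3 counts.

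miR-2284x alone made up most of the family. It had 5699, 121 and 2229 counts in Samples D, E and F, against 5848, 2383 and 2926 counts in Samples A, B and C. These were 700.2, 34.1 and 599.1 CPM in the blastocyst samples, against 743.5, 858.4 and 684.1 CPM in the not-cleaved samples. In 5 libraries the values lay between 599.1 and 858.4 CPM, and Sample E lay far below all of them. As a share of all family counts, miR-2284x took 76.4% of Sample D (Wilson 95% interval 75.5% to 77.4%), 25.2% of Sample E (21.5% to 29.3%) and 76.9% of Sample F (75.3% to 78.4%). Among not-cleaved samples it took 81.3% of Sample A (80.4% to 82.2%), 78.9% of Sample B (77.4% to 80.3%) and 83.1% of Sample C (81.8% to 84.3%). Over the whole table miR-2284x ranked 66 to 73 among the 1055 entries in 5 libraries and 189 in Sample E. On the ARS-UCD2.0 assembly of RefSeq its gene lies within TIAM1, an activator of the GTPase Rac, and the table used does not say whether in an exon or an intron.

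**Figure D1:**
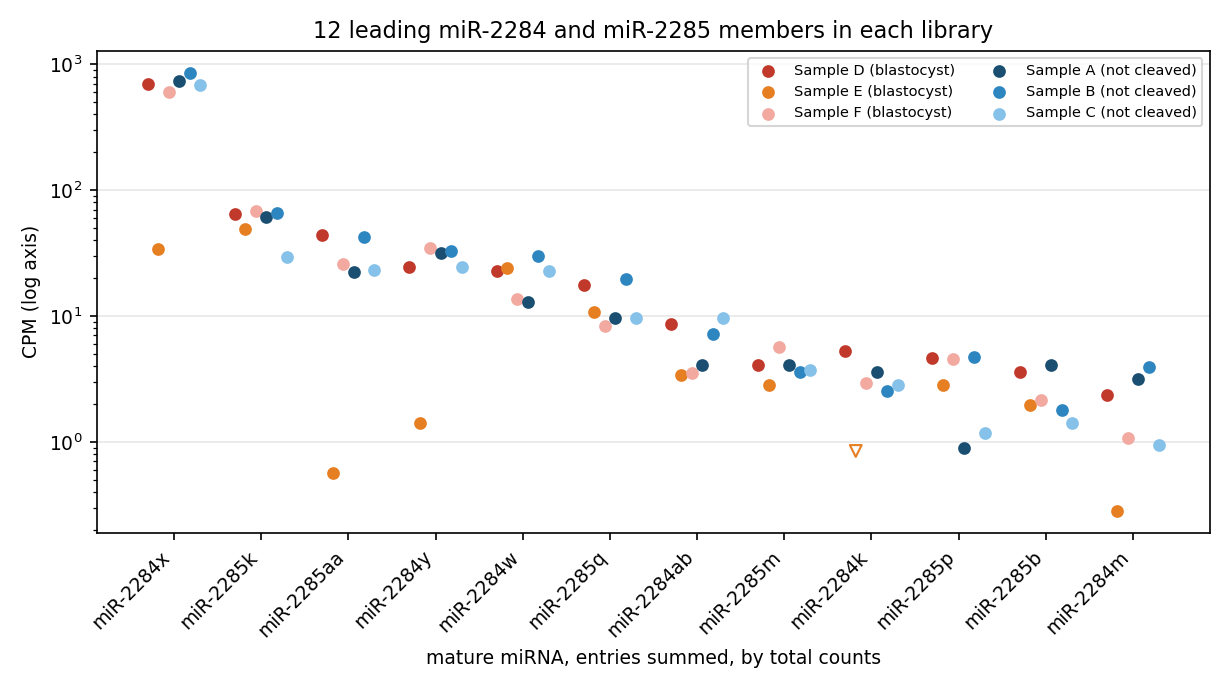
CPM on a log axis of the 12 mature miRNAs of the family with the most counts, entries summed, with a point for each library and an open triangle at the level of 3 counts where a library had 0. miR-2284x stands at 599.1 to 858.4 CPM except in Sample E at 34.1 CPM. Also lowest in Sample E are miR-2285aa, miR-2284y, miR-2284k and miR-2284m, and by smaller margins miR-2284ab and miR-2285m.

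The remaining counts fell mainly on 5 more miRNAs, miR-2285k, miR-2285aa, miR-2284y, miR-2284w and miR-2285q. With entries of a mature miRNA summed, miR-2284x and these 5 held 95.4%, 88.8% and 96.2% of the family counts of Samples D, E and F, against 96.3%, 96.5% and 96.4% of those of Samples A, B and C. The effective number of members, which is the inverse of the summed squared shares of entries, was 1.70, 7.53 and 1.68 for Samples D, E and F, against 1.51, 1.60 and 1.44 for Samples A, B and C. The counts of Sample E were thus spread over more entries, although fewer entries were seen in it. Entries count singly in this number, and in Sample E 36.5% of family counts lay on miR-2285k, which has 5 entries. By level, miR-2284x came before miR-2285k in all libraries but Sample E, where miR-2285k was first with 175 counts, followed by miR-2284x with 121 and miR-2284w with 85.

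**Figure D2:**
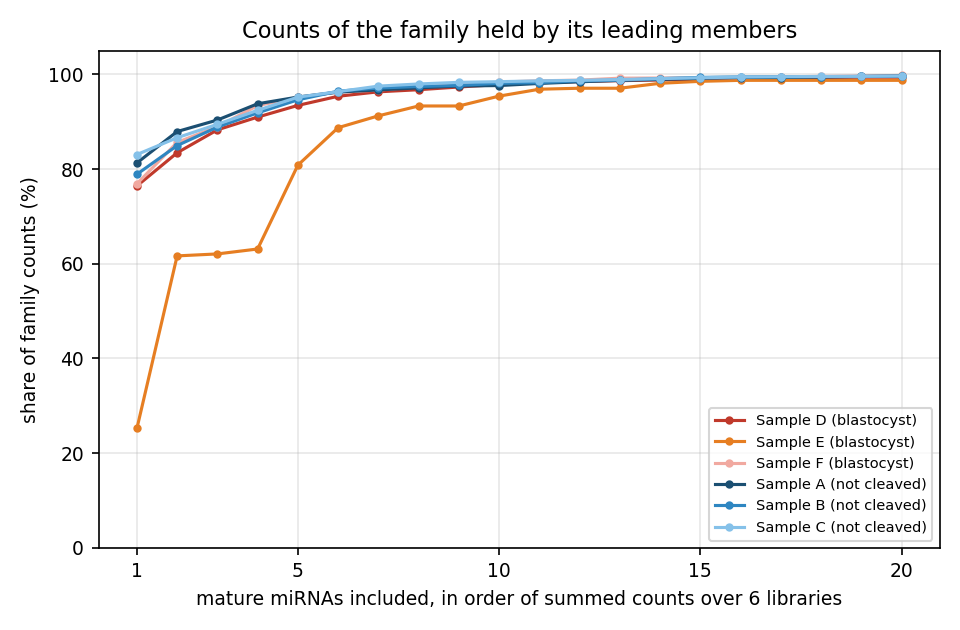
Share of family counts in percent, on the y axis, held by the first 1 to 20 mature miRNAs in the order of their counts over all libraries. The curves of 5 libraries start between 76.4% and 83.1%, while that of Sample E starts at 25.2% and reaches 61.7% with the second miRNA, miR-2285k.

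miR-2285k, the next in level, has 5 entries in the table, and the 5 precursor genes of RefSeq lie apart from each other, 3 of them within DLG2, PIP4K2A and LRRC8D. Its entries summed to 64.3, 49.3 and 68.3 CPM in Samples D, E and F, against 60.6, 65.9 and 29.2 CPM in Samples A, B and C. Sample C was the lowest, and the other 5 libraries were within 49.3 to 68.3 CPM. Counts of single entries ran from 23 in Samples E and C to 130 in Sample A. Within a library the variance of the 5 counts over their mean was 0.1 to 5.73 (median 3.0), where counting alone would give about 1 for entries of the same level.

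miR-2284y has 7 entries, as many as its precursor genes in RefSeq. The entries summed to 201, 5 and 129 counts in Samples D, E and F, against 247, 91 and 104 in Samples A, B and C. In CPM these were 24.7, 1.41 and 34.7, against 31.4, 32.8 and 24.3, so that 5 libraries were close and Sample E was far below them. The variance over the mean of its entries was 0.256 to 3.31 (median 1.54) in the 5 libraries with at least 20 counts. The division of reads that match several precursors was not given in the sources used here. Values of single entries of miR-2284y and miR-2285k are therefore uncertain.

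miR-2285aa, whose gene lies within ERCC3, a helicase of transcription factor TFIIH, had 361, 2 and 96 counts in Samples D, E and F, against 175, 118 and 100 counts in Samples A, B and C. Its level was 44.4, 0.563 and 25.8 CPM in blastocyst samples, against 22.3, 42.5 and 23.4 CPM in not-cleaved samples. Sample E was again the lowest by far, and the other blastocyst samples overlapped with the not-cleaved ones.

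miR-2284w did not follow that pattern. Its gene lies within DOCK11, which activates the GTPase Cdc42. It was at 22.6, 23.9 and 13.7 CPM in Samples D, E and F, against 13.0, 29.9 and 22.9 CPM in Samples A, B and C. Sample E was second highest, and the groups overlapped. miR-2285q, within the splicing regulator gene SREK1, was at 17.7, 10.7 and 8.33 CPM in Samples D, E and F, against 9.66, 19.8 and 9.59 CPM in Samples A, B and C, with Samples D and B highest. The gene of miR-2285q overlaps that of miR-2285z in RefSeq, and miR-2285z had 0 counts in every library. Of the precursor genes matched, 12 overlap another miRNA gene. Among them a miR-2284y gene overlaps that of miR-2285u, which had 1 count in all, and another overlaps a miR-2285o gene. The strands of overlapping genes were not compared, and nothing consulted says whether the counting used strand. How reads were assigned between overlapping genes is therefore not known here.

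miR-2284ab had 70, 12 and 13 counts in Samples D, E and F, against 32, 20 and 41 counts in Samples A, B and C. Its level was 8.60, 3.38 and 3.49 CPM in blastocyst samples, against 4.07, 7.20 and 9.59 CPM in not-cleaved samples. Samples E and F were lowest, but Sample D lay above Samples A and B. With so few counts, the counting interval of Sample E alone was 1.75 to 5.90 CPM. miR-2285p, within the scaffold gene MPP7, was at 4.67, 2.82 and 4.57 CPM in Samples D, E and F, against 0.890, 4.68 and 1.17 CPM in Samples A, B and C. Samples A and C were lowest, on 7 and 5 counts, and Sample B lay beside the blastocyst samples. miR-2284k was at 5.28, 0 and 2.96 CPM in Samples D, E and F, against 3.56, 2.52 and 2.81 CPM in Samples A, B and C.

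The other members named here had few counts, and several were near the limit of detection in some libraries. Entries of miR-2285m summed to 10 to 33 counts by library, those of miR-2285b to 5 to 32, and miR-2284m had 1 to 25. Those of miR-2285o had 14, 0 and 12 counts in Samples D, E and F, against 22, 5 and 6 in Samples A, B and C. miR-2285ac had 10, 5 and 1 counts, against 14, 9 and 7, and miR-2285h had 13, 2 and 0 counts, against 16, 8 and 6, in the same order of libraries. miR-2284j summed to 36 counts, miR-2284t-3p to 23, with 15 of them in Sample D, and its other arm, miR-2284t-5p, had 0. Both arms of miR-2284h were seen, with 8 counts of the 5p arm and 1 of the 3p arm.

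The family as a whole was far lower in Sample E than in any other library, and the difference between groups depended on that library. Family counts summed to 916.1, 135.2 and 779.2 CPM in Samples D, E and F, against 914.5, 1088 and 823.4 CPM in Samples A, B and C. The means were 610.2 ± 417.0 CPM in blastocyst samples and 941.9 ± 134.3 CPM in not-cleaved samples (SD, n = 3 each). The difference of -331.8 CPM was smaller than the SD of the blastocyst samples, and it was -94.3 CPM without Sample E. Without Sample E the sign turned when miR-21-5p, which alone took 39.7% to 61.5% of whole libraries, was left out of the total. Relative to all counts other than miR-21-5p, the family level was 2378, 258.6 and 1733 CPM in Samples D, E and F, against 1774, 1804 and 1588 CPM in Samples A, B and C. The difference of means was then -265.6 CPM with Sample E and 333.4 CPM without it. Without miR-2284x the rest of the family summed to 215.9, 101.1 and 180.1 CPM in Samples D, E and F, against 171.0, 229.4 and 139.3 CPM in Samples A, B and C, and the difference of means was -14.2 CPM. Members named miR-2285 alone averaged 112.8 ± 38.6 CPM in blastocyst samples and 111.7 ± 37.6 CPM in not-cleaved samples (SD, n = 3 each), with Sample E lowest at 71.0 CPM and Sample C next at 74.3 CPM.

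Sample E, a blastocyst library, split the family. Relative to the median of the other 5 libraries, miR-2284x was 20.5-fold lower in Sample E, with a counting interval of Sample E of 17.2 to 24.8. miR-2284y was 22.3-fold lower (9.56 to 68.7, on 5 counts), miR-2285aa 45.8-fold lower (12.7 to 378.3, on 2 counts) and miR-2284m 8.29-fold lower (1.49 to 327.4, on 1 count). miR-2284k had 0 counts in Sample E, which makes it at least 3.50-fold lower at a floor of 3 counts in that library, and miR-2285o, also at 0, at least 2.13-fold lower. By contrast, the median of the others over Sample E was 0.944 for miR-2284w (0.764 to 1.18), 0.903 for miR-2285q (0.658 to 1.28) and 1.30 for miR-2285k (1.12 to 1.52). Between these, it was 1.62 for miR-2285p (0.882 to 3.38) and 2.13 for miR-2284ab (1.22 to 4.13). These sets were chosen after their values were seen and are a description of a single library.

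Within Sample E, the ratios of miR-2284x to miR-2285k and miR-2284w lay below those of all other libraries. For each count of miR-2284y, miR-2284x had 24.2 there, against 17.3 to 28.4 elsewhere, but this rests on 5 counts of miR-2284y. For each count of miR-2285k it had 0.691 in Sample E, against 8.78 to 23.4 in the others, and for each count of miR-2284w 1.42 in Sample E, against 28.7 to 57.3. Its ratio to miR-2285aa was 60.5 there, against 15.8 to 33.4 elsewhere, but it rests on 2 counts of miR-2285aa.

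Low values in Sample E were not limited to the family. Among the 367 entries averaging 10 or more counts, Sample E had 30 (8.17%) that fell short of the median library of the other 5 by over 2 log2 units. Of these, 11 belonged to this family, out of its 20 entries at that level. The 11 were miR-2285aa, miR-2284k, miR-2284x, miR-2284m and the 7 entries of miR-2284y. With entries summed, 5 of the 10 mature miRNAs behind these 20 entries were that low, since miR-2284y counts 7 times among the entries and miR-2285k 5 times. The median deviation in Sample E was -2.64 over the 20 family entries and -1.79 over the 10 mature miRNAs, against 0.02 over all 367 entries. In the other libraries the median over family entries was 0.09 (Sample D), 0.12 (Sample F), -0.02 (Sample A), 0.41 (Sample B) and -0.20 (Sample C), and only 1 family entry in any of them was beyond 2 log2 units, miR-2285p in Sample A at -2.30. The total of Sample E was not the lowest, its miR-202 level lay within the range of the others, its blood list was at 3.66 CPM and its vascular list at 27.6 CPM, both second to Sample B. Its embryonic list, at 8.45 CPM, was the highest of the 6 libraries and was nearly all miR-371. The part of RNA quality or of other cells in these values was not tested.

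**Figure D3:**
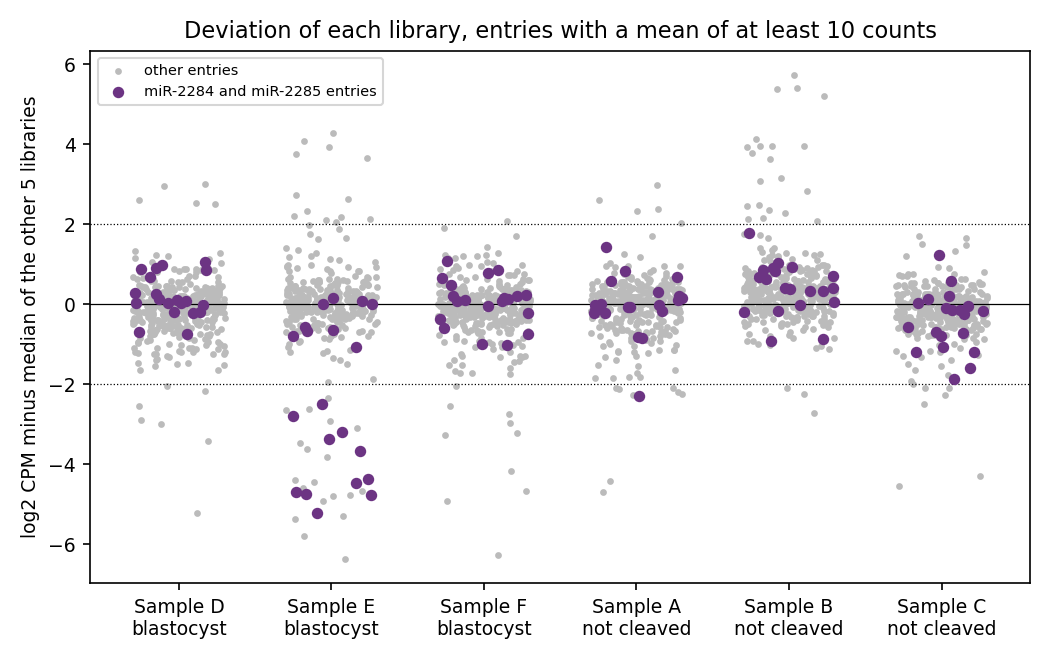
Log2 CPM of each library minus the median of the other 5, with family entries as large points, other entries averaging 10 or more counts as small points, and dotted lines at 2 log2 units. Family entries lie around 0 in 5 libraries, and in Sample E 11 lie between -2.50 and -5.20 and the other 9 between -1.07 and 0.16.

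Without Sample E, miR-2284x was among the steadier entries of the table. Its coefficient of variation over the other 5 libraries was 13.2%, rank 25 from the lowest of 300 entries with more than 10 counts in each of them, while the median of those entries was 25.3%. The 14 family entries among the 300 had a median of 30.0%, and miR-2284ab (41.1%) and miR-2285q (40.8%) varied most. Entries with few counts vary more by counting error alone, and the ranking was not adjusted for level. In these 5 libraries the lowest count was 2229 for miR-2284x, 13 for miR-2284ab and 31 for miR-2285q. With Sample E included, miR-2284x had 48.3%. In the authors' table of log2 values for the 50 most variable entries, the family has 2 members, miR-2284x and miR-2284ab, of the 9 that had more than 10 counts in all libraries, where the table took 50 of all 284 such entries (17.6%). Their deposited values were 9.45, 5.09 and 9.23 for miR-2284x in Samples D, E and F, against 9.54, 9.75 and 9.42 in Samples A, B and C. They equal log2 CPM.

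To see whether any member differed between pools of the 2 fates, all entries were tested together with edgeR's quasi-likelihood test on TMM-scaled counts, which corrects for differences in composition between libraries. Of the 358 entries that passed the expression filter, 19 were family entries, of 9 mature miRNAs. An entry can pass by the group in which it is high, so these 19 do not stand for the family. None of them passed an adjusted p of 0.05, as 0 of all 358 did (0%), and DESeq2 and edgeR's exact test also called 0. At an unadjusted p under 0.05 there were 0 family entries, while 10 of all 358 (2.79%) had one. The lowest unadjusted p of the family was 0.130 for an entry of miR-2284y.

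Point estimates of the family lay on both sides of 0. Of the 19 entries, 9 were higher in blastocyst samples, against 46.1% of all entries tested, and 10 were lower, against 53.9%. The median log2 fold change was -0.01 over the family and -0.02 over all 358 entries. Without Sample E, 14 of 20 family entries were higher, against 49.5% of all 368 tested, and 6 were lower, against 50.5%. The median was then 0.28 over the family and -0.01 over all entries, and 0 family entries had an unadjusted p under 0.05, against 4.62% of all. Without Sample B, 1 of 19 family entries had such a p, miR-2285p, against 6 of all 366 entries tested. Without both Samples B and E it was again miR-2285p alone, 1 of 22, against 17 of all 379. TMM-scaled levels of the groups did not overlap for 2 of the 19, a miR-2285k entry and a miR-2284y entry, where 9.50% of all entries tested did not overlap.

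The log2 fold change of miR-2284x was -0.65 (SE 0.87, adjusted p = 0.993 in edgeR), and without Sample E it was -0.09 (SE 0.17, adjusted p = 0.943 in edgeR). Its TMM-scaled level was 467.1 ± 381.1 CPM in blastocyst samples and 733.4 ± 17.3 CPM in not-cleaved samples (SD, n = 3 each). That of miR-2285aa was -0.14 (SE 1.05) with all libraries and 0.43 (SE 0.41) without Sample E. miR-2284w had -0.01 (SE 0.40), miR-2285q 0.08 (SE 0.43) and miR-2284ab -0.30 (SE 0.59). miR-2285k had 0.36 (SE 0.33) and miR-2284y -0.41 (SE 0.86) when their entries were summed before the test, a choice made after the data were seen. The highest of the family was miR-2285p with 1.11 (SE 0.68), which has a single entry. It was 1.99 (SE 0.72, unadjusted p = 0.0301, adjusted p = 0.992 in edgeR) without Sample B and 2.19 (SE 0.73, unadjusted p = 0.0221, adjusted p = 0.977 in edgeR) without Samples B and E. The lowest was an entry of miR-2284y, entry 3 by its suffix in the table, with -1.18 (SE 0.69). With all 6 libraries each of these differences was smaller than 2 of its standard errors.

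**Figure D4:**
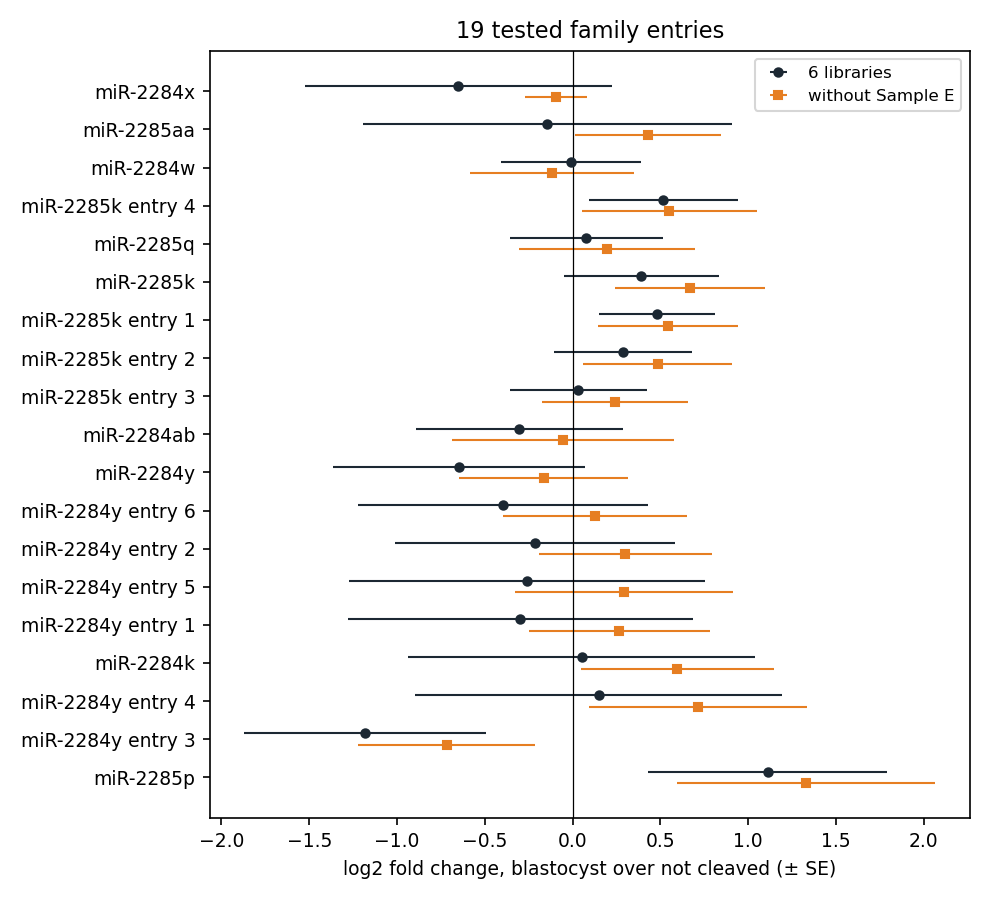
Log2 fold change, blastocyst over not cleaved, with bars of 1 standard error for the 19 family entries tested, from 6 libraries (circles) and without Sample E (squares). Entries of a mature miRNA are numbered by their suffix in the table. With all libraries 9 entries lie above 0, and the bars of miR-2284x shrink from 0.87 to 0.17 without Sample E.

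The genes of the family are scattered. RefSeq names matched 59 of the 60 precursor names of the family in the table, with 99 genes on 28 chromosomes of ARS-UCD2.0. Of these, 67 (67.7%) lie within a protein-coding gene, against 65.3% of the 841 other miRNA genes listed. Apart from overlapping pairs, none of the 99 has another miRNA gene within 10 kb. For 57 of the 60 names the number of entries in the table equals that of RefSeq genes. RefSeq lists 92 further genes of the family under letters that the count table does not hold, and these were not analysed here.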

How the data were processed

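Adapter-ligated small RNA libraries were sequenced by Illumina NextSeq. Per entry of miRBase or of their own putative miRNAs, the authors deposited raw counts, which are whole numbers and sum to different totals. Aligner, counter and build were not given in the sources used here. Deposited by the authors, too, were log2 values of 50 entries, equal to log2 CPM of the library total. Their table of the group comparison (fold change, p-value and FDR) was not used, nor was the sample sheet. The header of each column gives a letter and a group, and was not tied to a single sample label.

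The group comparison used edgeR 4.0.16 in R 4.3.3 (filterByExpr by group, TMM, quasi-likelihood test, Benjamini-Hochberg adjustment over all 358 tested entries at 0.05) with DESeq2 1.42.0 as an alternative. Python 3.11.15 and scipy 1.17.1 gave levels and intervals. The standard error is the absolute log2 fold change over the square root of F. The fit was also run on simulated data with known changes. The smallest difference that these libraries could show is not given here. Deviations used log2 CPM with 0.5 added to counts. Precision follows depth, 2776256 to 8139237 counts per library. Sums over members, numbers of members and shares were described without a test.

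Members named are those that passed the filter, the 10 next by summed count, miR-2284ab and members that share a name with these. miR-2284h, miR-2285o, miR-2285u and miR-2285z were added after their values were seen. Membership followed the name alone, but the choice of members and of lists was made with earlier results of these data known. Gene names and neighbours come from RefSeq, assembly ARS-UCD2.0, with no coordinates used across builds. Alternatives were DESeq2, upper-quartile factors, library totals, leaving out miR-21-5p, no filter, merged entries, the exact test and leaving out libraries.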

Additional observations from a re-analysis of the deposited data

How the results depend on the processing

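No entry passed an adjusted p of 0.05 under any alternative run. The number of family entries with a higher point estimate, 9 of 19, was 38 of 74 with no filter on low counts (46.1% of all entries), 4 of 9 and 5 of 10 with entries merged by mean or by sum (45.7% and 46.8% of all), and 16 of 22 without both Samples B and E (52.8% of all). It ran from 6 of 20 without Sample D (44.8% of all) to 14 of 20 without Sample E (49.5% of all). With library totals it was 6 of 19 (36.9% of all), and with upper-quartile factors 10 of 19 (79.1% of all). The family difference of -331.8 CPM was -14.2 CPM without miR-2284x and -21.3 CPM without Samples B and E, and ran from -484.7 (without Sample D) to -94.3 CPM (without Sample E). The difference in entries above 10 counts, -2.67, ran from -6.5 to 1.5, and the mean share of miR-2284x, 70.3%, from 67.7% to 79.3%. The cause of these moves was not tested.

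Upper-quartile factors moved the median of all entries to 0.32, and library totals to -0.13. Signs of small log2 fold changes turned for miR-2284w (0.016 in DESeq2, 0.35 with upper-quartile factors, 0.0068 without miR-21-5p, 0.029 without Samples B and E), for miR-2285q (-0.068), miR-2285k entry 3 (-0.11) and miR-2284k (-0.061) with library totals, and for miR-2284k with no filter (-0.00053). Without Samples B and E they turned for miR-2285aa (0.65) and for the single miR-2284y entry that has no suffix (0.058). They turned there as well for miR-2284y entries 1 (0.36), 2 (0.40) and 6 (0.12). With 1 library left out, ranges were -0.26 to 0.22 for miR-2284w, -0.33 to 0.38 for miR-2285q, -0.94 to 0.14 for miR-2284ab, -1.03 to 0.43 for miR-2285aa, -0.92 to 0.60 for miR-2284k and -0.15 to 0.24 for miR-2285k entry 3. For miR-2284y they were -1.03 to 0.27 (entry 1), -0.64 to 0.30 (entry 2), -0.72 to 0.71 (entry 4), -0.71 to 0.29 (entry 5) and -1.18 to 0.13 (entry 6). miR-2285p ran from 0.70 (without Sample A) to 1.99 (without Sample B). miR-2284x kept its sign, from -1.17 (without Sample D) to -0.09 (without Sample E). No paired analysis was run because the labels give no pairing between libraries.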
